A study of Rattus norvegicus with 2 samples.

Results

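Keratins are the intermediate filament proteins of epithelial cells, and the keratin genes were followed here between 2 stages of fetal rat skin. The members were all array names that begin with Krt and a number, or that consist of Kb or Ka and a number, which are older rat names for type II and type I keratins. The rule found 32 names, read by 33 probes, among 35581 names on the array. They stand for 31 current gene symbols, since the array holds a probe named Krt14 and another named Krt1-14. Of the 32, 24 were detected, meaning well above background for at least 1 stage on both arrays, among 24815 detected names in all.

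The later stage was E19, day 18.5 of gestation, and it was set against E16, day 16.5. Both were skin of Sprague Dawley rat fetuses with no treatment, and 3 E19 samples and 4 E16 samples were each combined into 1 pool before labelling. Both pools were hybridised together to 2 Agilent arrays that carry a red dye, Cy5, and a green dye, Cy3. One array had E19 in Cy5, with E16 in Cy3, and the other had these dyes exchanged. The 2 arrays hold the same pools, so each stage has 1 replicate, no test between stages can be made, and every SD below is the spread of 2 arrays and not of animals. The arrays read 45018 spots each, with between 69.8% and 72.6% of spots well above background per channel.

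Keratin filaments form from pairs, each made of an acidic type I and a basic type II protein. The genes sit in 2 clusters, which in the rat annotation lie on chromosome 10 for type I and chromosome 7 for type II, with the type I gene Krt18 placed in the type II cluster. Krt5 and Krt14 are the pair of the basal, dividing layer of the epidermis, and Krt1 and Krt10 replace them as cells move upward and differentiate. Krt8, Krt18 and Krt19 belong to simple epithelia and, in the fetus, to the periderm, the temporary covering of the skin. Other keratins mark the hair follicle, the mucosa or the cornea.

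Promoters of 4 members are shown to put sequence beside the genes that differ in direction below. Krt10 and Krt5 were higher in E19, Krt8 was nearly level and Krt77 was higher in E16. The sequences are from RefSeq on the GRCr8 build, run from 250 bases before to 50 bases after the annotated start, and are written in the direction of the gene. Krt10 is read from chr10:84839111-84839410 (minus strand), Krt5 from chr7:134730520-134730819 (minus strand), Krt8 from chr7:135010290-135010589 (minus strand) and Krt77 from chr7:134880727-134881026 (minus strand). Capitals mark 5 motifs searched on either strand, which are TATAAA of the TATA box, CCAAT of the box of that name, GGGCGG of Sp1 sites, TGANTCA of AP-1 sites and GCCNNNGGC of AP-2 sites.
Krt10: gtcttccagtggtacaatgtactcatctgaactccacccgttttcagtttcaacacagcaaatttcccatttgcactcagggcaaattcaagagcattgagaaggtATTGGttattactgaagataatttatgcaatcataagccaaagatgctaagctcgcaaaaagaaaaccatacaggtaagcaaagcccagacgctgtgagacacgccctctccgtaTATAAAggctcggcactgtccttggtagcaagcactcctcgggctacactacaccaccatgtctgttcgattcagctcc
Krt5: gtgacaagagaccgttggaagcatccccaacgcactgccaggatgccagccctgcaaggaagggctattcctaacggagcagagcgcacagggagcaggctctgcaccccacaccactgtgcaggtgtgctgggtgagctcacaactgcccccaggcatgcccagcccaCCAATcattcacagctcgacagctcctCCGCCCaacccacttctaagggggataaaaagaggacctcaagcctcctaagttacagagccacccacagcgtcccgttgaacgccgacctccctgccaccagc
Krt8: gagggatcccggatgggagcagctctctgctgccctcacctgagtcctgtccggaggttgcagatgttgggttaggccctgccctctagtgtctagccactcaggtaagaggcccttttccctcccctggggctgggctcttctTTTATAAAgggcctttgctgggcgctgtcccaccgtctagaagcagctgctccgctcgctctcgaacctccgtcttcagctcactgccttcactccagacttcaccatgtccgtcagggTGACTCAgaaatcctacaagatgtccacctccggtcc
Krt77: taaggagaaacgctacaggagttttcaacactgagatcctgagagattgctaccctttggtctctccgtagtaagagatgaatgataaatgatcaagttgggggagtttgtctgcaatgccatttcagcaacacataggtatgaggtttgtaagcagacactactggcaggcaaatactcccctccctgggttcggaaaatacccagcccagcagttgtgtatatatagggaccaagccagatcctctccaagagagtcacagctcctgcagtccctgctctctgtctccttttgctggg

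Of the 31 member symbols, 24 had a promoter in the RefSeq table. TATAAA was in 14 of these 24 promoters, against 14.2% of 33469 rat promoters of the same length. CCAAT was in 13 of 24, against 37.5% of all promoters, and GGGCGG in 3 of 24, against 33.1%. TGANTCA was in 2 of 24, against 7.33%, and GCCNNNGGC in 4 of 24, against 15.1%. Krt10 carried TATAAA with its first base at position -29 and CCAAT at position -144, counted from the start as 0. Krt5 carried CCAAT at -81 and GGGCGG at -54, and Krt8 carried overlapping matches to TATAAA on opposite strands at -106 and -104 and TGANTCA at 13. None of the 5 motifs was in the Krt77 window. Matches were counted anywhere in the window, and those to TATAAA lay between -209 (Krt84) and -29. In Krt8 the letters atg stand at position 0, so its TGANTCA match may lie in coding sequence. These are matches of letters, and no binding was measured.

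Ratios are given as log2 of E19 over E16, and a keratin was counted as higher in one stage when each array showed it higher there by 2-fold or more. By this rule 8 of the 24 detected keratins were higher in E19, a direction called for 3.09% of all detected genes. Ka11 and the probe named Krt14 are both among these 8 and may read the same gene, as described below. In the other direction 1 keratin was higher in E16, against 4.0% of all detected genes. The median log2 ratio of the 24 keratins was 0.30, against -0.01 for all detected genes, and 15 keratins were above 0 on both arrays while 6 were below 0 on both. The remaining 15 keratins did not pass the limit on both arrays. Of the 9 that did, 5 exceeded the log2 limit of 1 by less than 0.15 on both arrays, namely Krt5, Krt13, Krt25, Krt12 and Krt77. The count higher in E19 was 4 with median centring in place of loess normalisation, against 1.82% of all detected genes, and 3 when centred on spike-in RNAs, against 1.91%. The arrays measured bulk skin, so fewer cells of a type and less RNA per cell cannot be told apart.

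The arrays gave similar counts but differed in the brightest keratins. On the array with E19 in Cy5, 10 keratins were at least 2-fold higher in E19, against 3.76% of all detected genes, and 1 was higher in E16, against 5.01%. On the array with E19 in Cy3, 8 were higher in E19, against 3.91% of all, and 1 was higher in E16, against 4.77%. Krt14 on the probe Krt1-14 and Krt1 passed only on the first of these arrays. The median keratin ratio was 0.44 where E19 was in Cy5 and 0.25 where it was in Cy3.

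**Figure D1:**
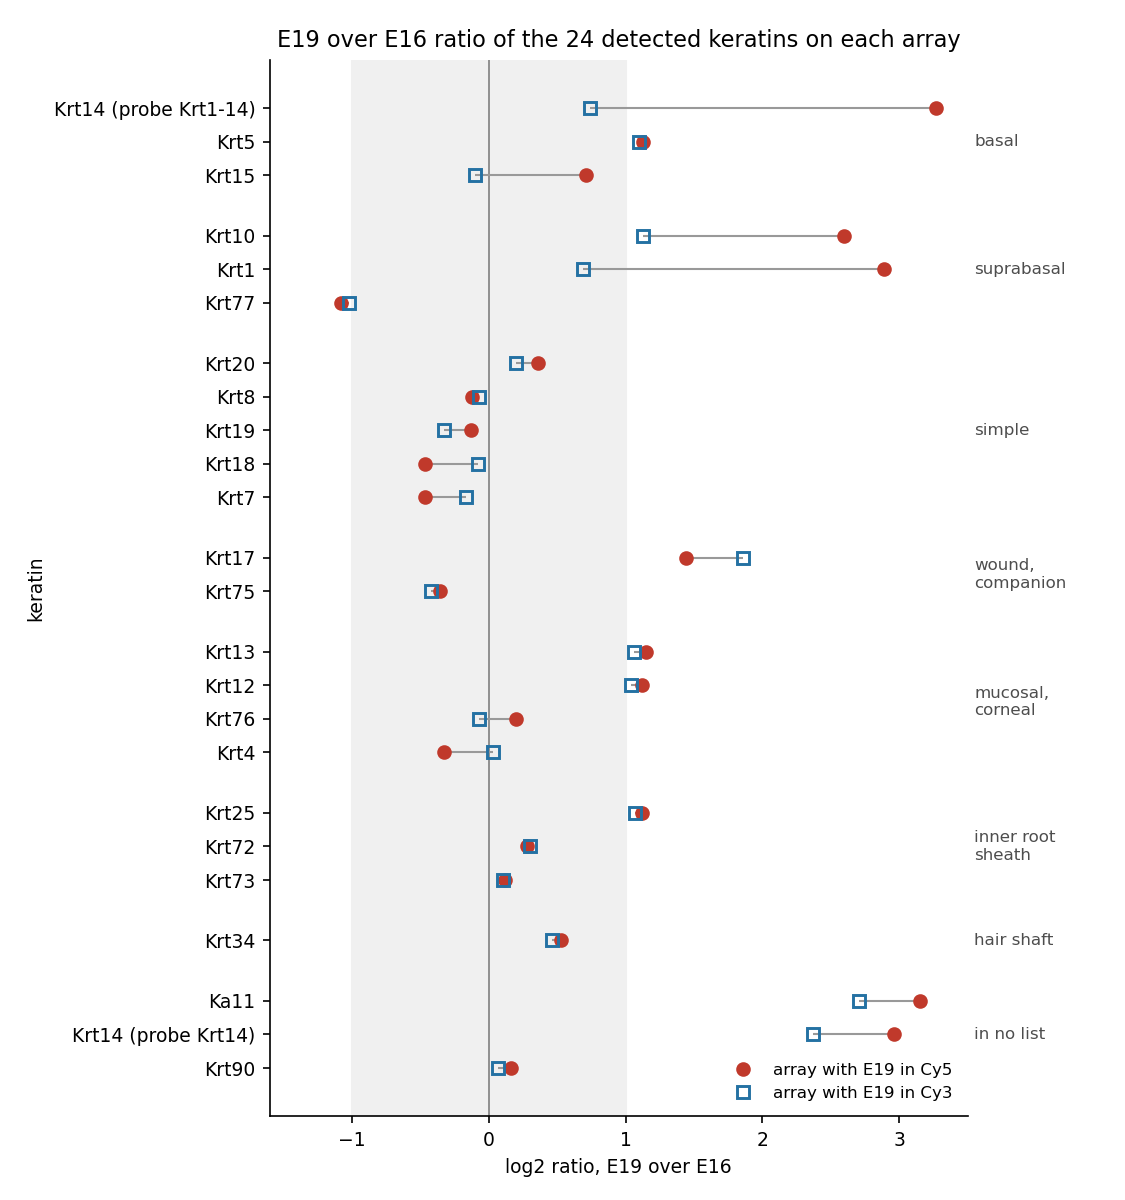
The log2 ratio of E19 over E16 for each of the 24 detected keratins, grouped by where the keratin is known to be made. Filled circles are the array with E19 in Cy5, open squares the array with E19 in Cy3, and grey shading spans less than 2-fold. Krt14 on the probe Krt1-14, Krt1 and Krt10 show the widest distance between the arrays (2.53, 2.20 and 1.47), and most other keratins nearly overlap.

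Among the basal keratins, Krt5 was higher in E19 at nearly the same size on both arrays. Its log2 normalised intensity was 16.52 and 16.85 in E19, against 15.39 and 15.75 in E16, where here and below the array with E19 in Cy5 is given before the array with E19 in Cy3. Both E19 values lay above both E16 values, and the ratio averaged 1.11 ± 0.02 (SD of 2 arrays), which is 2.17-fold. This call was lost with median centring, with spike-in centring and when the stages were compared in Cy5 only, across the arrays.

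Krt14, the type I partner of Krt5, was read by the probe Krt1-14. That probe gave 18.27 and 18.06 in E19, against 15.01 and 17.32 in E16. After loess normalisation E19 was higher on both arrays, but by 3.27 on one and 0.74 on the other. The probe Krt1-14 thus fell short of the 2-fold limit on the array with E19 in Cy3. With median centring its ratio on that array was -0.36, so the sign there depended on the normalisation. The E19 spot was marked as saturated on the array with E19 in Cy5, which limits how exactly 3.27 can be read. The mean of 2.0 ± 1.79 (SD of 2 arrays) therefore has a spread nearly as large as itself.

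The probe named Krt14 gave 15.41 and 15.48 in E19, against 12.45 and 13.10 in E16. It was higher in E19 on both arrays, with a ratio of 2.67 ± 0.41 (SD of 2 arrays), or 6.35-fold. RefSeq lists Krt14 both as the gene and as a synonym of Krt16, a keratin of hyperproliferating epidermis, so which of these genes this probe reads was not settled and it was kept out of the basal list. Krt15, a basal keratin also found in hair follicle stem cells, stood at 16.76 and 16.35 in E19, against 16.05 and 16.45 in E16. Its arrays differed in sign, at 0.71 and -0.10.

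The suprabasal keratins included the pair that marks the first differentiated layer. Krt10 stood at 18.28 and 18.56 in E19, against 15.68 and 17.42 in E16. After normalisation both E19 values were above both E16 values. The ratio of 2.60 on one array and 1.13 on the other averaged 1.87 ± 1.04 (SD of 2 arrays), or 3.65-fold. The 2.60 and this average include an E19 spot marked as saturated, so they are not exact, and leaving out saturated spots gave Krt10 no value. The call was lost with median centring, with spike-in centring and within Cy5. Its partner Krt1 stood at 18.06 and 18.28 in E19, against 15.17 and 17.59 in E16. After loess normalisation Krt1 was also higher in E19 on both arrays, by 2.89 and 0.69, and so did not meet the limit on the second array. With median centring the second array gave -0.46 for Krt1 and -0.02 for Krt10, so the sign there depended on the normalisation.

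Krt77, a type II keratin also known as keratin 1b, was the only member of all 24 that met the rule for E16. It stood at 7.93 and 8.02 in E19, against 9.01 and 9.04 in E16. Both E16 values lay above both E19 values, and the ratio was -1.05 ± 0.04 (SD of 2 arrays), which is 2.07-fold higher in E16. The call was lost with median centring. The Krt77 gene lies between Krt5 and Krt8 by position on chromosome 7, so keratins with ratios of 1.11, -1.05 and -0.10 share that cluster.

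The simple epithelial and periderm keratins differed little between the stages. None of the 5 detected members passed the limit, and their mean ratios lay between -0.32 and 0.28 with a median of -0.23. Krt8 stood at 11.90 and 11.89 in E19, against 12.03 and 11.96 in E16, a ratio of -0.10 ± 0.04 (SD of 2 arrays). Its partner Krt18 had a ratio of -0.27 ± 0.28 (SD of 2 arrays) on the brighter of 2 probes and -0.07 ± 0.01 on the other. The array design places these probes on chromosomes 2 and 10, where RefSeq has a Krt18-like gene and a Krt18 pseudogene, so signal of near-identical copies may be shared and Krt18 is uncertain.

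Krt19, which has almost no tail domain and pairs with several type II keratins, had -0.13 and -0.33 on the 2 arrays. Krt7, a keratin of simple and glandular epithelia, had -0.47 and -0.17. Krt20, known from gut epithelium and from Merkel cells of the skin, was on the other side of 0, at 0.36 and 0.20. Krt8, Krt18, Krt19 and Krt7 were thus each below 0 on both arrays, at sizes under the 2-fold limit.

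Averaged over the arrays, the largest ratio of the detected members belonged to Ka11, a type I keratin. On the array with E19 in Cy5 alone, the probe Krt1-14 was above it, at 3.27 with a saturated spot against 3.15. Ka11 stood at 16.42 and 16.78 in E19, against 13.27 and 14.07 in E16, and the difference of 2.93 ± 0.31 (SD of 2 arrays) is 7.61-fold. Its E19 values were far above its E16 values on both arrays. The probe is also listed under Krt16's accession, so Ka11 and Krt16 cannot be told apart by it. The probe named Krt14 may read Krt16 as well, so it and Ka11 may not be separate genes.

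Krt17, which is made in periderm, in early hair buds and in wounded epidermis, was likewise higher in E19. It stood at 12.24 and 12.51 in E19, against 10.80 and 10.65 in E16. The ratio was 1.65 ± 0.30 (SD of 2 arrays), or 3.13-fold, and unlike the brightest keratins it was larger on the array with E19 in Cy3. Krt75, of the companion layer of the hair follicle, had -0.36 and -0.42 on the 2 arrays and did not pass the limit.

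Among mucosal and corneal keratins, Krt13 and Krt12 passed by small margins. Krt13, of stratified mucosa, stood at 11.35 and 11.19 in E19, against 10.20 and 10.13 in E16, a ratio of 1.1 ± 0.06 (SD of 2 arrays). Krt12, of the corneal epithelium, stood at 11.94 on each array in E19, against 10.81 and 10.89 in E16, a ratio of 1.08 ± 0.06 (SD of 2 arrays). For each of these genes both E19 values were above both E16 values, and both calls were lost with median centring and with spike-in centring. Krt4, the type II partner of Krt13, had -0.33 and 0.03, and Krt76, of the palate, had 0.20 and -0.07, so neither had a settled sign.

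Hair follicle keratins among the members were mostly low or not detected at these stages. Outside the naming rule, the hair shaft keratin Krt33a and a probe described as similar to a type II hair keratin were detected, as given at the end. Krt25, of the inner root sheath, stood at 7.94 and 7.73 in E19, against 6.82 and 6.66 in E16, where it was well above background on 1 of 2 arrays. Its ratio of 1.09 ± 0.04 (SD of 2 arrays) met the limit, but its size depended on the background step, at 1.74 with a normexp offset of 0 and 2.52 from the signals that Feature Extraction, the scanner's program, had processed. The spread of the arrays does not cover this, and the call was lost with spike-in centring. The other detected inner root sheath members, Krt72 and Krt73, lay at 0.29 and 0.11.

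Of 6 hair shaft keratins among the members, 1 was detected, Krt34, with 6.86 and 6.96 in E19, against 6.33 and 6.49 in E16. Its E16 signal was well above background on 1 of 2 arrays and its ratio was 0.50 ± 0.04 (SD of 2 arrays). With an offset of 0 it was 1.14, and from the processed signals it was 1.98 and met the limit, so its size is not settled. Krt90, the array's Kb15, was in no list and had a ratio of 0.12. The 8 members not detected were the hair shaft keratins Krt32, Krt36, Krt39, Krt82 and Krt84, the inner root sheath keratin Krt26, Krt24, and Krt9, the keratin of palms and soles. Of these, Krt24 passed the background flag for both stages on one array (E19 in Cy5) and for neither on the other.

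**Figure D2:**
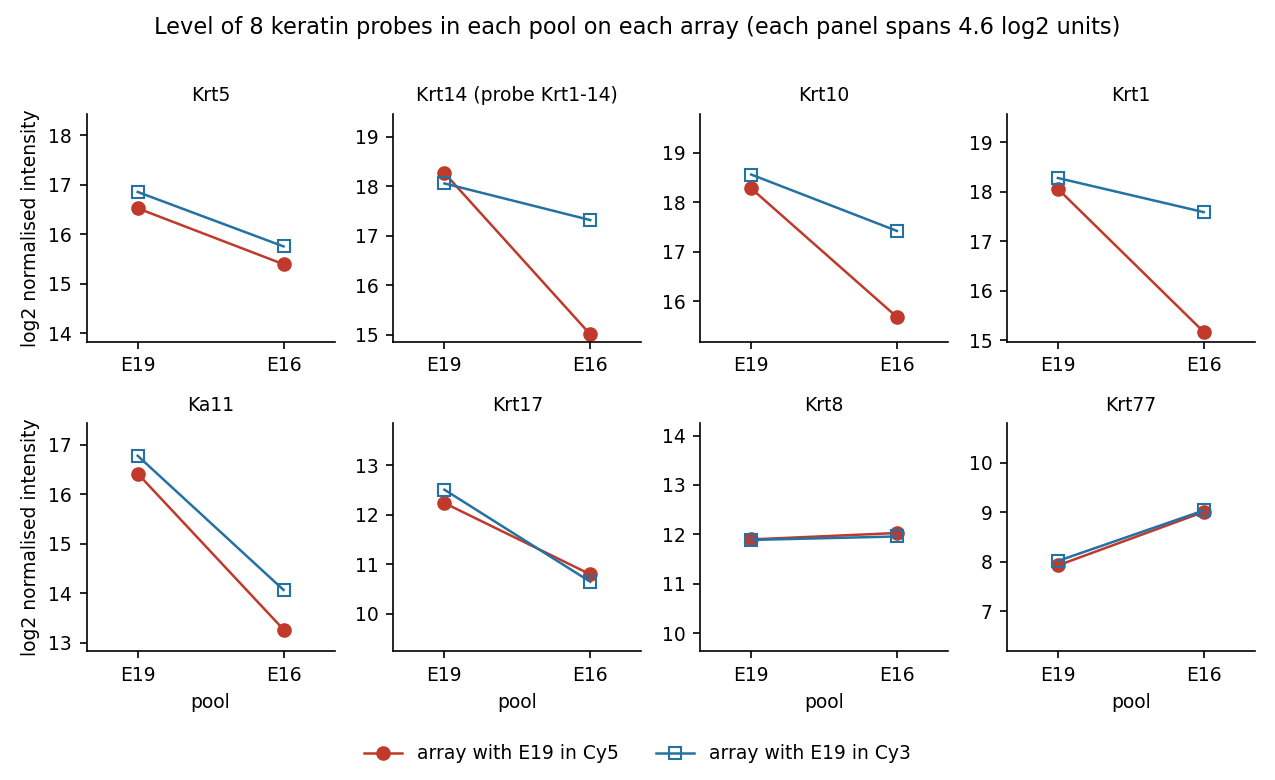
The log2 normalised intensity of 8 keratin probes in the E19 pool and the E16 pool. Each line is 1 array, filled circles with E19 in Cy5 and open squares with E19 in Cy3. For Krt14, Krt10 and Krt1 the E16 value was 15.01, 15.68 and 15.17 in Cy3 and 17.32, 17.42 and 17.59 in Cy5, while the lines of Krt5, Krt17, Krt8 and Krt77 run nearly together.

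Among the detected members, the type I keratins had a higher median ratio than the type II keratins. Of 13 detected type I members, 7 were higher in E19 and 0 were higher in E16, with a median of 1.09. The shares of all detected genes were 3.09% and 4.0%. Of 11 detected type II members, 1 was higher in E19 and 1 in E16, with a median of 0.07. Krt1 and Krt5 were the type II members with mean ratios above 1. The 7 type I members include Ka11 and the probe named Krt14, which may read the same gene. These counts cover only members of the naming rule. Outside it, probes similar to the type II keratin 6a (4.92 and 3.81) and Kb40 (1.76 and 3.03) were higher in E19. So were Krt33a (2.54 and 1.47) and a probe described as a type I cytokeratin (1.03 and 1.66). The other detected probes described as keratins did not pass the limit. The difference between the types was not tested.

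The distance between the arrays was widest for 3 of the brightest keratins, and the bright Krt5 did not share it. Among 23269 genes with all 4 signals well above background, Krt10 was the 5th brightest in Cy5, the probe Krt1-14 the 13th and Krt1 the 23rd. Ordered by how far the ratio differed between arrays, Krt1-14 was 3rd and Krt1 7th of the same genes, and Krt10 was 54th. The uncorrected brightness of Krt1-14 was 602123 in E19 (Cy5) and 121787 in E19 (Cy3), against 17731 in E16 (Cy3) and 388154 in E16 (Cy5).

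For Krt10 the brightness was 628219 and 172216 in E19, in Cy5 and Cy3, against 27977 and 431201 in E16, in Cy3 and Cy5. For Krt1 it was 522846 and 145170 in E19, against 20042 and 494377 in E16, in the same dyes. In all 3 genes the Cy5 signals of the stages were thus closer to each other than the Cy3 signals were. The saturated spots named above were those of Krt10 and Krt1-14 for E19 in Cy5.

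When the stages were compared within a dye, across the arrays, the log2 ratio of Krt1-14 was 3.03 in Cy3 and 0.97 in Cy5. It was 2.87 in Cy3 and 0.88 in Cy5 for Krt10, and 3.10 in Cy3 and 0.42 in Cy5 for Krt1. The Cy5 ratios of Krt1-14 and Krt10 rest on the saturated E19 spots, so they are not exact and may be too low. Ka11, at 3.44 and 2.41, and Krt5, at 1.42 and 0.88, showed the same order at smaller distance. Krt17, at 1.70 and 1.63, and Krt12, at 1.11 and 1.07, were almost the same in both dyes. E19 was higher than E16 in either dye for each of these keratins.

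Other bright genes also differed between arrays. Of the 25 brightest genes in Cy5, 24 had the larger ratio where E19 was in Cy5, and 17 differed by at least 1 between arrays, 3 of them keratins. The difference reached 1 in 46 of the next 75 genes, in 40 of the 400 after those, in 7 of the following 1500 and in 26 of the remaining 21269. Many of these signals came from the extended range of the scan, a second reading at lower gain for spots too bright for the first. Of 784 genes with all 4 signals from that range 12.8% differed by at least 1, against 0.63% of 2541 with some and 0.10% of 19944 with none. The part of the extended range, of saturation or of the dyes in the keratin ratios was not tested.

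**Figure D3:**
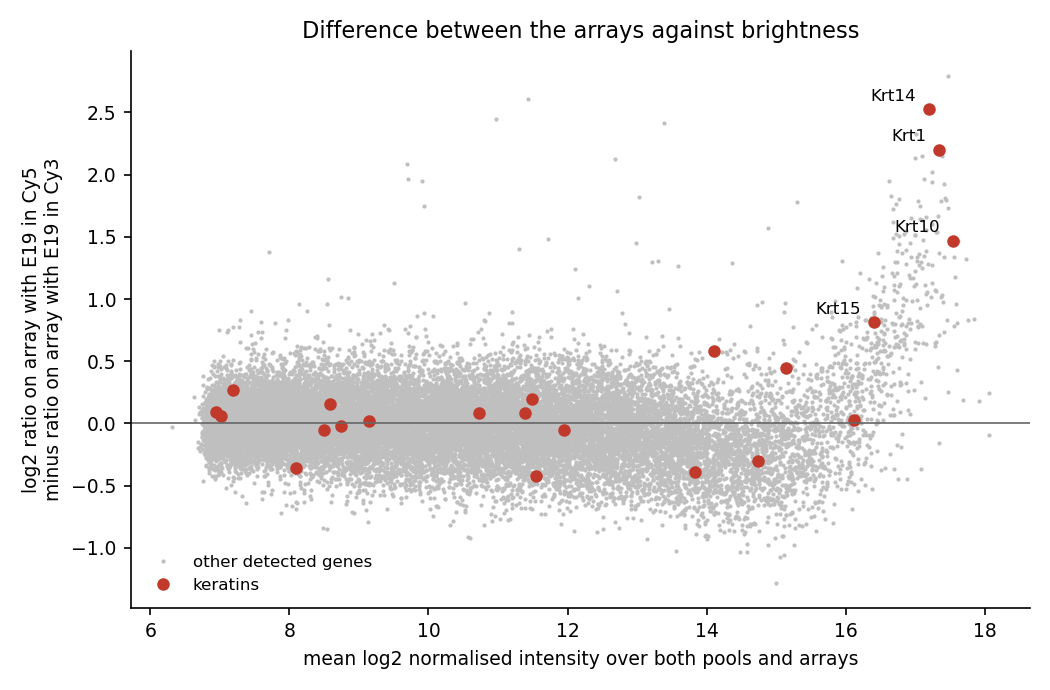
The log2 ratio on the array with E19 in Cy5 minus that on the array with E19 in Cy3, against mean log2 intensity, for genes with all 4 signals well above background. Red points are the 22 keratins among them and grey points are other genes. Krt14 (probe Krt1-14), Krt1, Krt10 and Krt15, at 2.53, 2.20, 1.47 and 0.81, lie in the bright tail that turns upward, and Krt5 at 0.03 does not.

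Proteins that bind or bundle keratin filaments were set beside the family. Of 20 listed genes 15 were on the array, and all 15 were detected. Of these, 8 were higher in E19, against 3.09% of all detected genes, and 0 were higher in E16, against 4.0%. Their median log2 ratio was 1.21. Flg, whose product filaggrin bundles keratin in the outer layers, had 2.22 and 1.73 on the 2 arrays. Dsp, desmoplakin, which ties keratin to desmosomes, had 1.77 and 1.63.

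Other desmosomal and plakin genes were also higher in E19. Pkp1, a plakophilin, had a mean ratio of 1.58 ± 0.05 (SD of 2 arrays), Ppl, periplakin, 1.52 ± 0.12 and Pkp3, another plakophilin, 1.49 ± 0.13. The remaining genes past the limit were Jup, Fam83h and Evpl. Another plakophilin of the list, Pkp2, had 0.20 and 0.30 and did not pass. Plec and Dst, plakins that link filaments to the basal surface among other sites, lay at 0.20 and -0.28 and did not pass. The difference of this list from other genes was not tested.

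Among the other intermediate filament genes, more were higher in E16 than in E19. Of 15 detected, 1 was higher in E19, against 3.09% of all detected genes, and 6 were higher in E16, against 4.0%. The other 8 did not pass, and the median was -0.43. The 5 with the largest ratios toward E16 were Ina (-3.59), Nefm (-2.98), Prph (-2.28), Nefl (-1.61) and Nes (-1.48), which are known from neurons or their progenitors. Nefh, another neurofilament gene, was higher in E19, at 1.17 and 1.37. Vim, vimentin of mesenchymal cells, had 0.64 and -0.61, a difference in sign between arrays.

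Markers of other tissues moved as well, where 3.09% of all detected genes were higher in E19 and 4.0% were higher in E16. Of 5 nerve markers 4 were higher in E16 and 0 in E19, and of 5 cartilage markers 4 were higher in E16 and 0 in E19. Of 5 fat markers 4 were higher in E19 and 0 in E16, and of 4 detected melanocyte markers 2 were higher in E19 and 0 in E16. Of 5 muscle markers 1 was higher in E19 and 2 were higher in E16. Ina stands in both the nerve list and the filament list. The part of a changed tissue makeup in the keratin ratios was not tested.

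**Figure D4:**
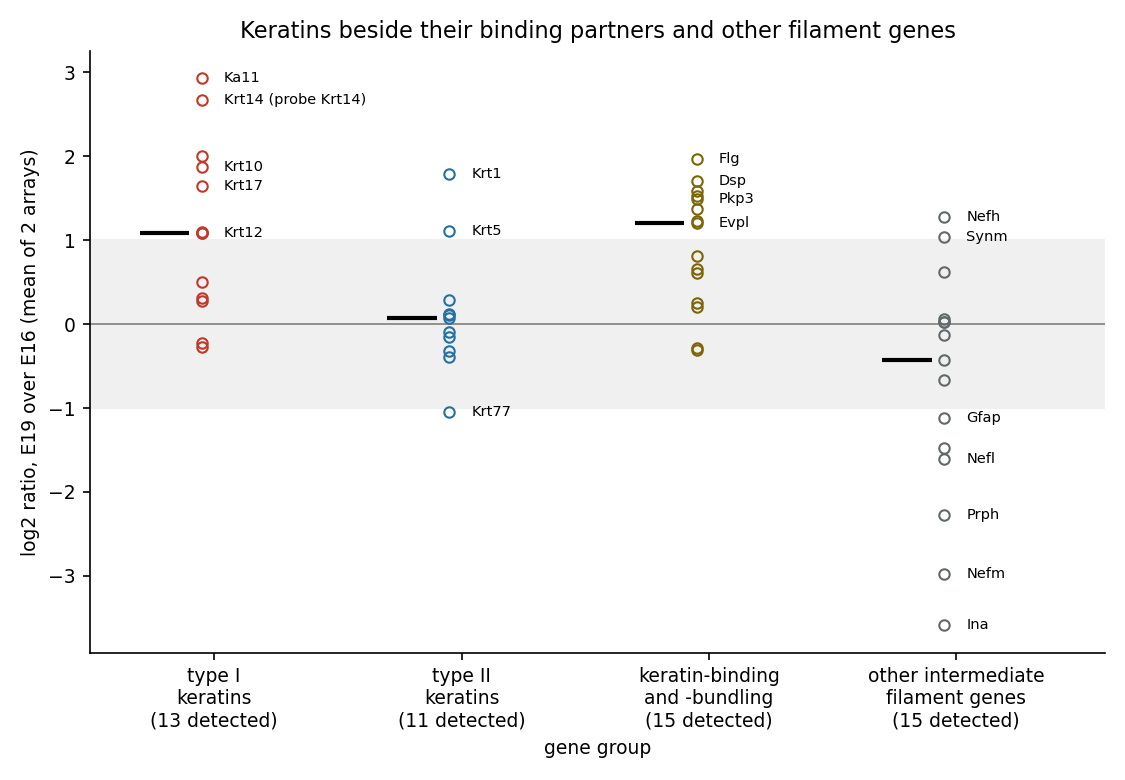
The mean log2 ratio of E19 over E16 for detected type I keratins, type II keratins, keratin-binding genes and other intermediate filament genes. Each circle is 1 gene, black bars are medians (1.09, 0.07, 1.21 and -0.43), grey shading spans less than 2-fold, and some genes past it are named.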

How the data were processed

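Spot intensities were measured in both channels with Agilent Feature Extraction 9.5.1.1, per the file headers, which also give log10 ratios, p-values of those ratios and flags for background, saturation and extended range. The authors' deposited table of the series holds a log10 ratio and a p-value per sequence, and how the arrays were combined in it is not given in the sources used here. The deposited p-values were not used. Here the uncorrected intensities were background-corrected with normexp (offset 50) and loess-normalised within each array with limma 3.58.1 in R 4.3.3, with control spots at weight 0. Ratios were turned to E19 over E16 and averaged over the arrays. For each name the brightest detected probe was used. The steps were tested on simulated data, in which changes were planted only in probes of middle brightness. Saturation was not simulated and no change near the 2-fold limit was planted. The brightest and dimmest keratins and the calls near the limit were therefore not covered.

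Names were updated from RefSeq, by accession for 26 members, by symbol for 2 and by synonym for 4. All 24 detected members were to be described by name. Genes of the partner and filament lists were named when past 2-fold on both arrays, up to 5 a direction, and others (Jup, Fam83h, Evpl, Pkp2, Plec, Dst and Vim) were named after their values were seen. The members and lists were chosen with earlier results of these data known. The precision is limited by the 2 arrays and by their single slide, so no batch could be tested. Alternatives are given in the closing section. Python 3.11.15, numpy 2.4.6 and pandas 2.3.3 were used.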

Additional observations from a re-analysis of the deposited data

How the results depend on the processing

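The median stayed above 0 in all settings that gave one. Counts are of keratins higher in E19 and in E16, each with the share of all genes at that setting. From the signals that Feature Extraction had processed, or from its log ratios, they were 11 (5.46%) and 2 (6.5%), with a median of 0.45. In the authors' deposited table they were 11 (6.52%) and 2 (7.39%), with a median of 0.44. That table gives 1 value per gene, as do the comparisons within a dye given below. Their counts apply the 2-fold limit to this value and not to each array, so their rule is looser than the main rule. Median centring gave 4 (1.82%) and 0 (3.16%), and a 3-fold limit 2 (0.883%) and 0 (1.64%). On the array with E19 in Cy5 alone the median was 0.44. Chosen after seeing the data, a comparison within Cy5 gave 5 (5.27%) and 2 (6.15%) and one within Cy3 gave 9 (6.12%) and 1 (6.63%). Centring on 10 spike-in RNAs, whose mean log2 ratio was 0.22, gave 3 (1.91%) and 1 (5.79%), with a median of 0.08. The cause of these changes was not tested. At the 2-fold limit, 8 settings could give a called keratin another value, which leaves out changed limits and filters and settings that repeat values. Ka11, Krt17 and the probe named Krt14 passed in all 8, though Ka11 and that probe may both read Krt16. Krt77 passed in 7, Krt13 and Krt12 in 6, Krt10 and Krt5 in 5, and Krt25 in 5 of the 6 that gave it a value. Krt1 and the probe Krt1-14 each passed in 3 of 8, among them the deposited table and the comparison within Cy3, which rest on 1 value per gene. Krt75 passed toward E16 in 3 of 8, and its values over the 8 lay between -1.14 and -0.36. No paired analysis was possible because each stage is 1 pool. Signals near background limit Krt25, Krt34, Krt75 and Krt90.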

Other observations

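Some probes outside the naming rule are described as keratins in the array files, and they include a larger ratio than that of any member. Of 10 such names 7 were detected. Of these, 3 were higher in E19, against 3.09% of all detected genes, and 0 in E16, against 4.0%. The probe described as similar to keratin 6a, a keratin of wounded and hyperproliferating epidermis, had log2 ratios of 4.92 and 3.81 on the 2 arrays, with a mean of 4.36 ± 0.78 (SD of 2 arrays). Its uncorrected brightness was 627310 in E19 (Cy5) and 421018 in E19 (Cy3), against 6404 in E16 (Cy3) and 163972 in E16 (Cy5). The first of these is near the 628219 of the saturated Krt10 spot. As for Krt10, the Cy5 signals of the stages were closer to each other than the Cy3 signals, so the size of this ratio is uncertain.

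A probe described as similar to Kb40 had 1.76 and 3.03, a distance between arrays that runs opposite to that of Krt1 and Krt10. A probe described as a type I cytokeratin had 1.03 and 1.66. A probe whose description names mouse keratin 10 as a partial match had -0.81 and -0.47, against 2.60 and 1.13 for the Krt10 member itself. Krt33a, a hair shaft keratin found only by accession, had 2.54 and 1.47 and was higher in E19 by the same 2-fold rule. A probe described as similar to a type II hair keratin of mouse had 0.39 and -0.29, a difference in sign between arrays. Its uncorrected brightness was 32043 in E19 (Cy5) and 8947 in E19 (Cy3), against 9443 in E16 (Cy3) and 42922 in E16 (Cy5).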
